A study of Mus musculus and synthetic construct with 30 samples.

Results

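Embryonic stem cells (mESC) with and without the *Peril* gene body were compared by RNA-seq. The comparison took the 6 libraries titled as stem cells among the 30 samples of the series and among its 16 RNA-seq libraries used here, 3 of wild-type (WT) cells and 3 of knockout (KO) cells. In the WT cells (clone WT4) the *Peril* locus was intact. In the KO cells (clone KO6) most of *Peril* was exchanged for *LacZ*, a bacterial reporter gene, with the promoter of *Peril* left in place, in the strain Periltm1.1Vlcg without the Neo cassette. All cells were male, were derived from preimplantation embryos of a mixed C57BL/6J and 129S6 background (N3), and were grown in 2i medium on feeder fibroblasts. Each genotype was 1 clone, its 3 libraries were 3 wells of that clone, and the study's sample sheet gives the KO wells a later passage. Genotype, clone and passage therefore cannot be told apart here, and every p-value measures the spread between wells.

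*Peril* is a long intergenic noncoding RNA on chromosome 3 that lies downstream of *Sox2*, and its locus overlaps a known super-enhancer of that gene. According to the study, the knockout leaves that super-enhancer in place, as it does the promoter of *Peril*. Mouse embryonic stem cells hold the ground state of pluripotency through a network of transcription factors around *Pou5f1*, *Sox2* and *Nanog*. The 2i medium blocks MEK and GSK3 kinases, which lowers ERK signalling and raises Wnt signalling and keeps the cells in the naive state. Formative and primed cells, the next step of development, switch on *Otx2* and the de novo DNA methyltransferases.

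The labels held in every well. *LacZ* was at 0.02, 0.07 and 0.03 TPM (transcript share scaled for length) in the WT wells and at 71.6, 73.7 and 69.6 TPM in the KO wells. *Peril* itself was at 0.57, 0.51 and 0.33 TPM in WT and at 0.24, 0.16 and 0.24 TPM in KO, from 8.13 to 17.5 expected counts per WT well and 3.0 to 8.29 per KO well. The *Peril* levels of the genotypes did not overlap (exact permutation test, two-sided, p = 0.1, the smallest p that 3 wells against 3 allow), and *Peril* had too few counts for the fit across genes. Stem cell markers were high in both genotypes. *Pou5f1* was at a mean of 1414 TPM in WT and 1385 TPM in KO, and *Nanog* at 514 and 530 TPM. Markers of the feeder cells were near the floor. The 24 fibroblast markers summed to 10.6 to 11.2 TPM in WT and 8.57 to 9.13 TPM in KO, and 2 of them, *S100a4* and *Twist2*, were at 0 in every well. Of the 15 of them that could be tested, 7 fell in KO (12.4% of all tested genes did) and none rose, with *Col3a1*, a fibrillar collagen, at 0.41 TPM in WT and 0.08 TPM in KO. Their part in the results below was not tested. Blood and endothelial markers were absent or low, apart from *Cd68* (26.9 TPM in WT and 22.7 TPM in KO), *Vwf* and *Tek*.

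Counts summed to between 29983751 and 40522622 per WT well and between 17544707 and 31494984 per KO well. The wells of a genotype lay close together, with a common biological coefficient of variation of 0.0367. KO well 1 stood apart from the other KO wells by some measures but not by all. The chi-square of its counts against KO wells 2 and 3 was 5.84 and 6.85 per degree of freedom, against 2.69 between wells 2 and 3 and 1.59 to 2.31 between WT wells. Pairs of a WT and a KO well gave 16.4 to 22.5. By the correlation of log2 scaled counts, KO well 2 was the one further off. It correlated at 0.9933 with KO well 1 and 0.9939 with KO well 3, against 0.9949 between KO wells 1 and 3. Of 9610 genes at 5 TPM or more in a genotype, 32 were in KO well 1 at least 1.5-fold below and 8 at least 1.5-fold above both other KO wells, against 2 to 14 and 5 to 16 in each of the other 5 wells. Changes of 2-fold or more were mostly shared by the KO wells. A fit without KO well 1 called 143 genes with at least 2-fold change and a mean of 1 TPM or more in a genotype. Of these, 138 changed the same way in KO well 1. That well showed a median of 88.8% of the change of the other KO wells on the log2 scale. The same share was 96.6% for KO well 2 and 94.0% for KO well 3. The same WT wells served to pick the genes and to measure the well left out. Part of this agreement is therefore built in.

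Of 26759 genes in the files, 14161 had at least 10 counts in at least 3 wells and were tested. The fit called 3547 of them (25.0% of the genes tested) at an adjusted p under 0.05, of which 1793 (12.7%) rose in KO and 1754 (12.4%) fell. Most of these changes were small. The median called gene changed 1.21-fold, 2103 calls (59.3%) were under 1.25-fold, and 221 (6.2%) reached 2-fold, 98 of them upward and 123 downward. A test against a minimum of 1.5-fold called 134 genes, 69 upward and 65 downward. The levels of the genotypes did not overlap in 3049 of the called genes (86.0%) and in 5151 of all tested genes (36.4%). The count of calls depended on single wells. It was 2208 without WT well 1, 2241 without WT well 2, and 5154 without KO well 1.

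**Figure D1:**
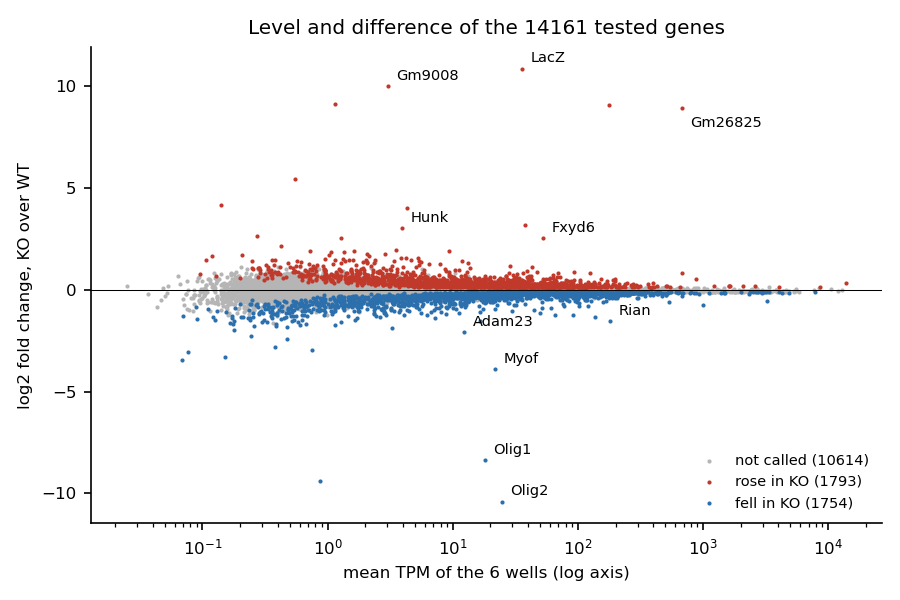
Mean TPM of the 6 wells (x, log axis) against the log2 fold change of KO over WT (y) for the 14161 tested genes. Each point is a gene, red where it rose, blue where it fell and grey where it was not called. Most called genes lie close to 0, and a handful of named genes, from LacZ and Gm26825 at the top to Olig1 and Olig2 at the bottom, stand far from it.

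**Figure D2:**
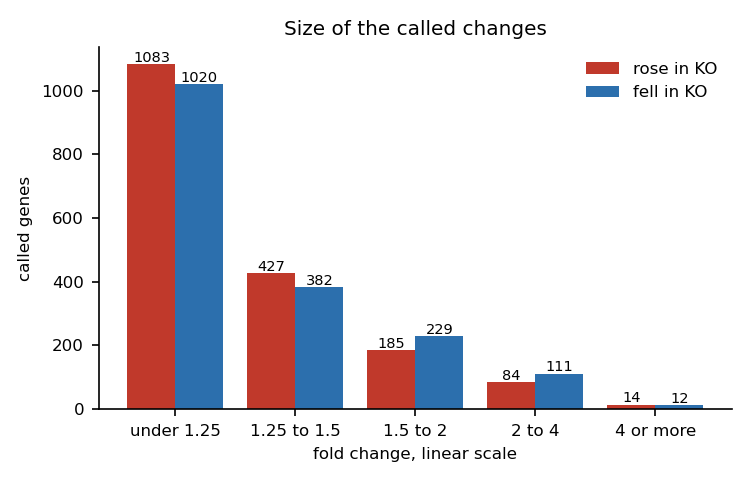
Number of called genes (y) by the size of the fold change between KO and WT on the linear scale (x), split by direction. Of the 3547 calls, 1083 upward and 1020 downward ones were under 1.25-fold and 14 and 12 were at 4-fold or more.

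Protein-coding genes split evenly, with 1689 that rose and 1693 that fell of 13166. Antisense transcripts did not split evenly, with 22 that rose and 4 that fell of 241, though the counting is not stated to have used strand, so antisense reads and reads of the partner gene cannot be told apart. Long intergenic noncoding RNAs gave 33 that rose and 21 that fell of 299.

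Some of the largest changes were of on and off type. *Gm26825*, a lincRNA on chr5:5781530-5783636 (mm10), was at 3.05, 2.47 and 2.70 TPM in the WT wells and at 1396, 1316 and 1344 TPM in the KO wells. This was a log2 fold change of 8.92 ± 0.066 (SE, adjusted p = 1.124e-20), and the gene with the smallest p of the comparison. *Gm9008* had no count in any WT well and 136, 83 and 118 counts in the KO wells, at least 148-fold higher than a floor of 3 counts over the 3 WT wells allows. In the other direction, *Olig2* and *Olig1*, which encode transcription factors of the oligodendrocyte lineage, were expressed in WT and nearly silent in KO. *Olig2* had 2196, 2353 and 3078 counts in the WT wells and 4, 0 and 0 counts in the KO wells. *Olig1* had 1458, 1416 and 2023 counts in WT and 2, 4 and 5 in KO. The 2 genes lie side by side on chromosome 16. The tested genes next to them moved by far less, with *Paxbp1* at a mean of 47.2 TPM in WT and 48.6 TPM in KO (not called) on one side and *Ifnar2*, an interferon receptor gene, falling from 13.6 to 10.8 TPM on the other. These neighbours were picked for their place. Farther off, *Hunk* (chr16:90386013-90499553, with *Olig2* at chr16:91225457-91228677) was among the strongest risers. From 90 to 100 Mb of chromosome 16, 9 genes rose and 11 fell of 58 tested (34.5% called, against 25.0% of all genes).

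Some of the genes that switched have near-identical copies elsewhere in the genome, so reads may have been split between them. Copies were searched by shared words of 31 bases in the annotated transcripts (GENCODE vM21). *Gm9008* shares 75.3% of its words with *Rnf26*, which was at a mean of 29.3 TPM in WT and 29.6 TPM in KO, and *Gm10073*, which rose from 7.25 to 68.1 TPM, shares 73.0% with the ribosomal protein gene *Rplp1*. *Gm14288* was also called, but it shares 97.5% of its words with *Gm14440*, its wells overlapped, and with length offsets its log2 fold change was 0.49 with an adjusted p of 0.916 (DESeq2). No such copy was found for *Gm26825*, *Olig1*, *Olig2*, *Hunk*, *Myof* or *Fxyd6*.

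Beyond the silent genes, *Myof*, which encodes the membrane repair protein myoferlin, fell from 42.2, 40.5 and 39.9 TPM to 2.74, 2.74 and 2.84 TPM (log2 fold change −3.91 ± 0.046). *Adam23*, a cell adhesion gene, fell from 18.68, 19.98 and 19.83 TPM to 3.79, 6.38 and 5.44 TPM. *Ephx2*, which encodes soluble epoxide hydrolase, fell from 97.7 to 56.6 TPM, and *Prdx6*, a peroxiredoxin gene, from 92.2 to 38.7 TPM. Upward, *Fxyd6*, a regulator of the sodium pump, rose from 15.08, 16.81 and 13.97 TPM to 87.6, 94.5 and 89.7 TPM (log2 fold change 2.54 ± 0.058). *Hunk* rose from 0.83, 0.95 and 0.79 TPM to 7.27, 6.86 and 7.08 TPM. *Dnah8*, an axonemal dynein gene, went from 6.94 to 14.1 TPM. In all of these genes the 3 KO wells lay on 1 side of all 3 WT wells, as in 86.0% of called and 36.4% of all tested genes. The genes were named for their fold or p in these same wells, so this adds no support.

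**Figure D3:**
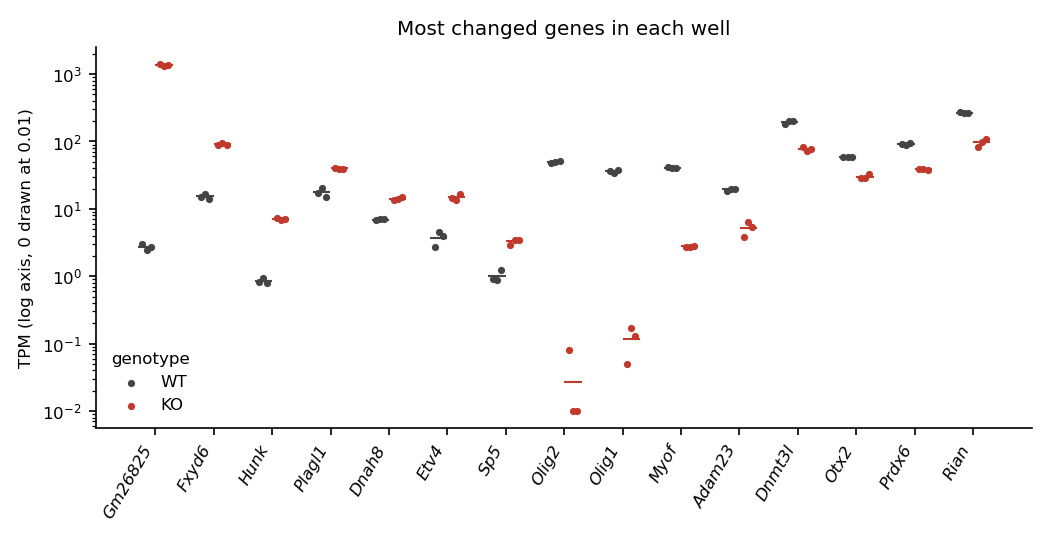
TPM (y, log axis, with 0 drawn at 0.01) of 15 strongly changed genes (x) in each of the 3 WT wells (grey) and 3 KO wells (red), with bars at the means. In each gene the wells of a genotype sit together and apart from those of the other genotype. The genes were picked as strongly changed in these same wells, and the genotypes did not overlap in 36.4% of all tested genes.

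The promoters of 4 of these genes are given to show how unlike they are in content of CpG, the substrate of DNA methylation. The sequences are from RefSeq (GRCm38.p6), run from 250 bases before to 50 bases after the RefSeq start, which for *Hunk* and *Olig2* is not the GENCODE vM21 start, and carry CpG (letters CG, palindromic, so equal on both strands) in capitals. *Olig2* (chr16:91225300-91225599, plus strand) holds 25 CpG and *Myof* (chr19:38043528-38043827, minus strand) 15, both from genes that fell. *Hunk* (chr16:90386147-90386446, plus strand) holds 41 and *Fxyd6* (chr9:45369935-45370234, plus strand) 12, both from genes that rose. Among the 32851 promoters of that table, 94.6% hold a CpG, the median is 7 (21 over the 10800 tested genes with an entry), and 18.4%, 34.6%, 3.46% and 39.6% hold as many as these 4 or more, in the same order.
Olig2: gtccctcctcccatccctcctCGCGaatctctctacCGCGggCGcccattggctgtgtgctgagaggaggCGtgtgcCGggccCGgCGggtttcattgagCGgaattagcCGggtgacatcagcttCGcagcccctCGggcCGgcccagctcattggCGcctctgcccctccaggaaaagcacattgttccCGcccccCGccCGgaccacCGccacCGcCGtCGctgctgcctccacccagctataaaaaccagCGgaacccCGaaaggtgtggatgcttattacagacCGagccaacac
Myof: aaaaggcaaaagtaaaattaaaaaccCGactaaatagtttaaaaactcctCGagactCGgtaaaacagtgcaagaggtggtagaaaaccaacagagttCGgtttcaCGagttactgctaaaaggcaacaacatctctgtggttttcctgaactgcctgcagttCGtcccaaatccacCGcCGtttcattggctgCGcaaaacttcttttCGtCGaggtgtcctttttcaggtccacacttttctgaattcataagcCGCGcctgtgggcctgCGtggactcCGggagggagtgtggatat
Hunk: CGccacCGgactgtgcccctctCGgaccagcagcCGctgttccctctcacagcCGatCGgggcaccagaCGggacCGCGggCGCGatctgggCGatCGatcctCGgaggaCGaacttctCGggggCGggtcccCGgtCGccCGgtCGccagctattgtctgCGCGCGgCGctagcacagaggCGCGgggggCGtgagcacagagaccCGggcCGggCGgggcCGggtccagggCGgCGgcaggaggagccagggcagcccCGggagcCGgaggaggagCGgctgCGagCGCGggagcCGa
Fxyd6: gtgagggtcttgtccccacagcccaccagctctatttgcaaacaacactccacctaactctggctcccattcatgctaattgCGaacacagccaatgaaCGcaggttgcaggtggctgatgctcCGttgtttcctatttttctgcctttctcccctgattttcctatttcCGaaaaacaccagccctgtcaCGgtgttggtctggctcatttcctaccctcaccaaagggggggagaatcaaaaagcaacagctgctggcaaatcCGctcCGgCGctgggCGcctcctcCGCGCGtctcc
No methylation was measured in these cells, and the letters are a description only.

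Gene lists are described below by how many of their tested members were called, beside the 25.0% of all genes. Where leaving out a well moved a count by more than 1.5 times, the count without that well is given. The counts over all genes moved too, so such a move need not be particular to a list. Without KO well 1, 2671 rose and 2483 fell of 14034 tested genes. Without WT well 1, 1086 rose and 1122 fell of 14002. Members named beyond the 3 smallest p of a list were picked after their values were seen.

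Of the general pluripotency factors, most were not called. None of the 20 rose and 7 fell, with a median log2 fold change of −0.09 against 0.004 over all genes. The 7 were *Dppa2*, *L1td1*, *Dppa4*, *Lin28a*, *Tdgf1*, *Fbxo15* and *Sall4*, at log2 fold changes of −0.41 to −0.13. *Dppa2*, a chromatin factor that primes early developmental genes, fell from 44.6 ± 0.40 TPM to 34.2 ± 0.82 TPM, and *Lin28a*, a repressor of let-7 microRNAs, from 182 ± 3.9 TPM to 151 ± 4.3 TPM. *Sox2*, the closest coding neighbour of *Peril*, was at 264 ± 4.4 TPM in WT and 255 ± 4.5 TPM in KO (log2 fold change −0.08 ± 0.034, adjusted p = 0.09416, not called). Without KO well 1, 12 of the 20 factors fell and 2 rose, and without KO well 3 1 rose.

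Of 18 factors of the naive state 7 rose and 4 fell, at a median log2 fold change of 0.05. Among the risers were *Tfcp2l1*, a naive transcription factor, from 220, 209 and 220 TPM to 279, 275 and 281 TPM, and *Gbx2* from 1.73 to 3.26 TPM. *Klf4*, *Klf5*, *Tcl1*, *Dppa3* and *Prdm14* also rose, and the fallers were *Mael*, *Sox15*, *Nr0b1* and *Pecam1*. In the LIF and STAT3 pathway, which sustains self-renewal, 8 of 17 members rose and 1, *Stat5b*, fell. The risers covered the receptor chains *Lifr* and *Il6st*, the transducer *Stat3*, its targets *Pim1*, *Bcl3*, *Junb* and *Socs3*, and *Socs2*, at log2 fold changes of 0.14 to 0.34. *Il6st*, the shared receptor subunit gp130, went from 44.4, 41.5 and 42.8 TPM to 48.3, 56.5 and 47.9 TPM. In 1 fit of all 16 libraries (edgeR), *Il6st*, *Pim1*, *Bcl3* and *Tfcp2l1* lost their calls (adjusted p = 0.119, 0.0926, 0.17 and 0.245). They were among 63 of the 163 named calls that this fit lost.

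Of 21 tested formative and primed genes 7 fell and 1, *Lefty2*, rose, with a median log2 fold change of −0.17. *Otx2*, the transcription factor that marks the exit from the naive state, fell from 59.1, 59.4 and 58.2 TPM to 28.7, 28.5 and 32.6 TPM (log2 fold change −0.99 ± 0.044, adjusted p = 3.448e-10). *Lef1*, a nuclear effector of Wnt signalling, fell from 3.74 ± 0.36 TPM to 1.47 ± 0.036 TPM. *Fgf15*, *Dnmt3a*, *Dnmt3b*, *Sox4* and *Pim2* made up the rest. Without KO well 1, 4 members rose, and without WT well 2 or 3 none did. *Fgf15*, at under 1 TPM, lost its call in 4 of the fits without 1 library.

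Of 9 tested genes of primitive streak and mesoderm, 4 rose and none fell. *Kdr*, a receptor of vascular growth factor, rose from 0.10, 0.19 and 0.15 TPM to 0.69, 0.73 and 0.68 TPM, and *Cdx1*, *Gsc* and *Gata2* rose too. Among primitive endoderm genes 3 of 12 rose (*Fst*, *Sox7* and *Apoe*) and 3 fell (*Cubn*, *Cited1* and *Gata4*), although the TPM of *Gata4* overlapped between the genotypes. Trophectoderm genes gave 4 that rose, *Tfap2a* the most, and 4 that fell, *Krt19* the most, of 14, with 2 fallers without any 1 of the WT wells or KO well 3. Genes of the rare 2-cell-like state were at the floor. Of 26 present in the files, only *Pramel6* and *Dppa2* (counted above) could be tested, and the others had means of at most 0.36 TPM. Neural genes gave 2 that rose and 3 that fell of 12. Besides *Olig1* and *Olig2*, whose counts drop below the filter without any WT well (0, 0 and 1 fell without WT wells 1, 2 and 3), these were *Nkx6-2*, which rose from 8.96, 7.89 and 9.12 TPM to 17.5, 21.8 and 17.9 TPM, *Gli1* and *Nes*.

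Of 24 tested Wnt targets and modulators, 9 rose and 3 fell, with a median log2 fold change of 0.13. *Sp5*, a direct target of Wnt signalling, rose from 0.91, 0.87 and 1.22 TPM to 2.95, 3.44 and 3.47 TPM (log2 fold change 1.65 ± 0.15). *Axin2*, *Notum*, *Znrf3* and *Cdx1* rose as well, as did the ligand secretion genes *Porcn* and *Wls* and the receptors *Fzd5* and *Fzd10*. *Lef1*, *Tcf7* and *Lgr4* of the same list fell. *Ctnnb1*, the central transducer, was at 370 TPM in WT and 376 TPM in KO and was not called. Without WT well 2, 5 rose.

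Genes of ERK feedback moved both ways. *Etv4*, a transcription factor induced by ERK, rose from 2.72, 4.48 and 3.92 TPM to 14.49, 13.65 and 16.56 TPM (log2 fold change 1.88 ± 0.11, adjusted p = 5.725e-09), and the feedback inhibitors *Spry4*, *Spred3* and *Spry2* rose. *Ier3* and *Spred2* fell, and *Etv5*, at 180 TPM in WT and 178 TPM in KO, was not called. In all 4 rose and 3 fell of 23 tested, with 1 faller when WT well 1, WT well 2, KO well 2 or KO well 3 was left out. Of 15 FGF ligands and receptors 1 rose (*Fgf17*, and 2 without KO well 1) and 1 fell (*Fgf15*, counted above, and none when WT well 1, WT well 2, KO well 2 or KO well 3 was left out). *Fgf4*, the main ligand of these cells, was at 180 ± 0.25 TPM in WT and 171 ± 12.1 TPM in KO, not called.

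Of 31 genes of the Nodal, TGF-beta and BMP pathway, 7 rose and 3 fell. The risers included *Id1* and *Id3*, targets of BMP signalling, and *Smad3*, and *Skil*, a repressor of SMAD activity, fell by 0.60 on the log2 scale. The count of risers moved with single wells, as did that of all genes, with 14 without KO well 1, 3 without WT well 1 and 2 without WT well 3. In the Notch pathway 3 rose and 3 fell of 19, led by *Maml2* upward and *Mfng* downward, and *Hes1* was not called. Without KO well 1, 6 Notch genes rose. The retinoic acid pathway had 1 riser, *Aldh1a3*, and 3 fallers, *Crabp2*, *Rarg* and *Aldh1a2*, of 13.

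**Figure D4:**
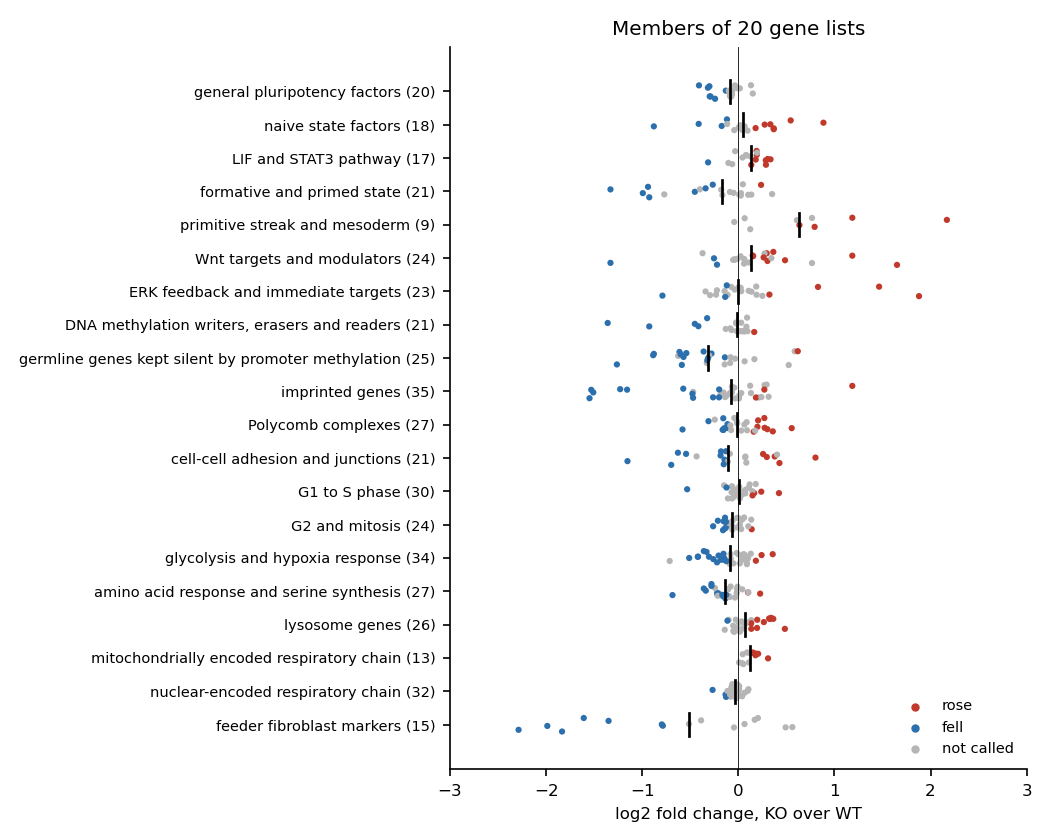
Log2 fold change of KO over WT (x) for the tested members of 20 gene lists (y, number of tested members in brackets). Points are genes, red where they rose, blue where they fell and grey where not called, and black bars are the list medians. The germline, formative and feeder lists have their medians furthest below 0, and the streak, LIF and Wnt lists have theirs above 0.

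Genes of new DNA methylation were among those that fell. *Dnmt3l*, the catalytically inactive cofactor of the de novo methyltransferases, fell from 185, 200 and 200 TPM to 83.8, 71.8 and 76.7 TPM (log2 fold change −1.36 ± 0.055, adjusted p = 1.07e-10). *Dnmt3a* fell from 12.99, 14.39 and 14.48 TPM to 7.27, 6.82 and 8.12 TPM, and *Dnmt3b* from 83.3, 84.8 and 87.2 TPM to 66.8, 61.4 and 66.1 TPM. In each of these 3 genes every KO well lay below every WT well. The genotypes did not overlap in 86.0% of all called genes either, and in 36.4% of all tested genes. *Uhrf2* and *Hells*, a cofactor and a remodeller linked to methylation, fell by 0.42 and 0.32 on the log2 scale. Of the 21 writers, erasers and readers 5 fell and 1, *Mbd4*, rose (2 without KO well 1 and none without WT well 1 or 2), and the other 15 were not called.

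Germline genes whose promoters are normally kept silent by DNA methylation form the next list. Of 25 tested, 13 fell and 1, *Fkbp6*, rose, with a median log2 fold change of −0.32. Among the fallers was *Sycp3*, a gene of meiotic chromosome pairing, which was at 4.08, 4.56 and 3.87 TPM in WT and 2.75, 1.76 and 2.19 TPM in KO. The others were *Sycp1*, *Dmc1*, *Hormad1*, *Hormad2* and *Smc1b*, which also act in meiosis, the germ cell RNA-binding genes *Dazl* and *Ddx4*, and *Mael* (counted above), *Tuba3a*, *Brdt*, *Tex19.1* and *Sohlh2*. Between 10 and 13 fell in the fits without 1 library. *Rpl10l*, a testis copy of a ribosomal protein gene, was at 22.5 TPM in WT and 22.4 TPM in KO.

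Imprinted genes, expressed from 1 parental copy, gave 11 that fell and 3 that rose of 35. The fallers were led by maternally expressed noncoding RNAs of the Dlk1-Dio3 cluster. The 7 adjacent tested genes from *Meg3* to *Ppp2r5c* (chr12:109541001-110583062) all fell. In order they were *Meg3*, *Rtl1*, *Rian*, *Gm26945*, *Mirg*, *Dio3* and *Ppp2r5c*, so the fall was not limited to the noncoding RNAs. *Ppp2r5c*, which lies beyond *Dio3* and outside the cluster, fell by 0.13 on the log2 scale and lost its call without WT well 1 (adjusted p = 0.0533) or WT well 2 (0.062). *Rian* fell from 272, 261 and 263 TPM to 82.9, 99.5 and 110 TPM, and *Meg3* from 123, 127 and 127 TPM to 41.2, 55.9 and 69.8 TPM. Of the other members, *Plagl1*, a paternally expressed zinc finger gene, rose from 17.2, 20.3 and 14.9 TPM to 41.0, 39.1 and 39.5 TPM (log2 fold change 1.19 ± 0.040, adjusted p = 9.77e-12). *Gnas*, *Grb10*, *H19*, *Th*, *Snrpn*, *Slc38a4* and *Sfmbt2* fell, and *H13* and *Zdbf2* rose. Without KO well 1, 5 rose.

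Polycomb genes gave 8 that rose and 8 that fell of 27 (59.3% called, against 25.0% of all genes). *Phc2*, a subunit of the canonical complex PRC1, rose from 9.97, 10.3 and 10.0 TPM to 15.4, 14.6 and 15.9 TPM. *Kdm2b*, which brings a variant PRC1 to CpG islands, fell from 127 to 102 TPM. Their median log2 fold change was −0.01. The counts were down to 5 risers without WT well 1 or KO well 3, and to 4 or 5 fallers without any 1 of these or of WT wells 2 and 3. Of 22 genes that silence retroelements, 7 fell, among them *Kdm1a* and *Cbx1*, and 2 rose (11 fell without KO well 1, and 1 rose when WT well 1, WT well 2 or KO well 3 was left out). *Trim28*, the corepressor of this system, was at 1050 TPM in WT and 1054 TPM in KO. Of 19 genes of cohesin, CTCF and Mediator 4 fell and 1, *Stag1*, rose, and *Rad21* was not called. Left-out wells gave 1 or 2 fallers, apart from KO well 1, without which 3 rose.

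Of 21 tested adhesion genes 14 were called (66.7%, against 25.0% of all genes). The tight junction genes *Cldn6* and *Cldn7* and *Epcam* fell, *Cldn6* from 15.4, 14.9 and 15.9 TPM to 6.12, 7.15 and 8.04 TPM, while *Dsg2*, a desmosomal cadherin, rose from 19.21, 20.30 and 21.33 TPM to 35.4, 38.2 and 34.0 TPM. *Cdh1*, the main cadherin of these cells, fell by 0.14 on the log2 scale and *Cdh3* rose by 0.38. In the basement membrane, collagen IV fell and a laminin chain rose. *Col4a1* went from 10.4, 11.3 and 10.4 TPM to 4.64, 6.02 and 5.10 TPM, with its partner chain *Col4a2*, and *Lama1* from 19.8, 20.4 and 20.4 TPM to 30.1, 34.7 and 33.4 TPM. Of these 23 genes 6 rose and 4 fell, and 12 rose without KO well 1.

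Metabolic genes changed by little. Of 34 genes of glycolysis and the response to hypoxia, 14 fell and 3 rose (1 without WT well 2), at a median log2 fold change of −0.09. *Bnip3* and *Pdk1*, targets of the hypoxia factor HIF1, fell from 36.1 to 27.5 TPM and from 32.2 to 25.4 TPM, and *Pkm*, the last enzyme of glycolysis, fell from 2491 to 2179 TPM, while *Gapdh* was at 7730 TPM in WT and 7759 TPM in KO. Of 27 genes of the amino acid response and serine synthesis 12 fell and 2 rose (4 without KO well 1 and 1 without any other well). *Stc2*, a target of the stress factor ATF4, fell from 12.3, 13.4 and 13.1 TPM to 7.62, 7.76 and 8.15 TPM, and *Cth*, *Psph*, *Phgdh* and *Chac1* fell, while *Asns* was not called. Of 26 lysosome genes 10 rose and 1, *Sqstm1*, fell. They included the enzymes *Manba*, which went from 75.2, 77.1 and 81.4 TPM to 100, 114 and 109 TPM, *Hexa*, *Neu1* and *Gaa* and their transcription factor *Tfeb*. When WT well 1, WT well 3 or KO well 2 was left out, 6 rose. There were 2 fallers without WT well 1 or KO well 2, and none when WT well 2, WT well 3 or KO well 3 was left out.

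Of 13 genes encoded on the mitochondrial genome 6 rose (3 without WT well 3) and none fell, at a median log2 fold change of 0.12, and they summed to 72000 to 73800 TPM in WT and 76400 to 88300 TPM in KO. The mitochondrial share of counts was highest in KO well 2, the library with the fewest counts, at 3.63% against 3.15 to 3.22% in WT. The calls of *mt-Co3* and *mt-Cytb* were lost without KO well 2 (adjusted p = 0.0935 and 0.127) and without any 1 of the WT wells (0.0771 to 0.111 and 0.0954 to 0.114). Of 32 nuclear genes of the respiratory chain none rose and 3 fell, *Cox7a2*, *Sdhd* and *Ndufv2*. Without KO well 1, 11 fell, and without any other well 1 did. Without WT well 3 or KO well 1, 1 rose.

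Proliferation genes differed slightly. Of 24 genes of G2 and mitosis 9 fell and 1, *Mki67*, rose, with *Top2a* at 420 ± 10.3 TPM in WT and 372 ± 3.1 TPM in KO. Without WT well 2 or 3, 5 and 4 of them fell, and the call of *Mki67* was lost without any 1 of the WT wells or KO well 2. Of 30 genes of the G1 to S step 4 rose and 2 fell, led by *Ccnd3*, a D-type cyclin, at 144 TPM in WT and 197 TPM in KO, with *Ccnd2* the main faller (5 fell without KO well 1, and 1 fell in the fits that left out WT well 2, WT well 3, KO well 2 or KO well 3). Among p53 and its targets 8 of 24 fell (5 when WT well 1, WT well 2 or KO well 3 was left out) and 3 rose. *Cdkn1a*, which encodes the cell cycle inhibitor p21, rose from 117 to 145 TPM, and *Trp53* was not called at 351 TPM in WT and 340 TPM in KO. Chaperone and unfolded protein genes gave 5 that rose and 2 that fell of 18, with 11 risers without KO well 1 and 2 or 3 without a WT well or KO well 2, and with at most 1 faller without a WT well or KO well 3. *Hspa8*, an abundant chaperone gene outside these lists, fell from 3774 to 2730 TPM. Antioxidant genes gave 3 risers and 7 fallers of 28, with *Prdx6* the largest, and 11 fell without KO well 1 but 1 or 2 without any other well. Cholesterol genes gave 3 each way of 25, and 8 rose without KO well 1. Of 18 interferon and antigen presentation genes 3 rose, with *Ifitm1* at 347 TPM in WT and 448 TPM in KO, and 2, *H2-K1* and *H2-D1*, fell (7 rose without KO well 1, and 1 fell without any other well). Of 14 subunits and cofactors of the RNA exosome 4 fell (2 without WT well 2 or KO well 3) and 1, *Dis3*, rose. *Exosc9*, a core subunit, fell from 93.3, 92.9 and 88.2 TPM to 59.79, 59.98 and 61.98 TPM. It lies on the same chromosome as *Peril* (chr3:36552606-36565727), and the study counts it as a distant gene, not a local one.

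Along the genome, 1 long stretch of chromosome 14 stood higher in KO. From *Vwa8* to *Clybl* (chr14:78849052-122402234) 63 adjacent genes were tested, of which 48 (76.2%) rose, none fell and 60 had a log2 fold change above 0. Their median log2 fold change was 0.39, or 1.31-fold, with quartiles of 0.29 and 0.50. The 437 tested genes of chromosome 14 before the stretch had a median of −0.02, with 59 that rose and 75 that fell, and the 8 after it a median of 0.03, with none called. The stretch and its ends were chosen after the values were seen, so these counts are a description. Whether the clones differed in DNA copy number there was not tested, which also bears on *Klf5*, *Spry2*, *Dis3* and *Dnajc3*, counted in the lists above. Among all other windows of 63 adjacent tested genes on the autosomes and chromosome X, the highest median on another chromosome was 0.13 and the lowest was −0.18.

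The rise was of like size in each KO well. Over the 52 genes of the stretch at 1 TPM or more, the median log2 ratio to the WT mean was 0.40, 0.38 and 0.36 in KO wells 1, 2 and 3, and 0.02, −0.01 and −0.01 in WT wells 1, 2 and 3 against the other WT wells. *Klf5*, a naive state factor, went from 87.9, 86.9 and 92.0 TPM to 119, 121 and 112 TPM. *Tm9sf2*, a membrane protein gene, went from 86.4, 83.1 and 86.6 TPM to 111, 130 and 122 TPM. *Spry2*, *Dis3* and *Dnajc3* lie in the stretch as well, as does *Mir17hg*, the host of the miR-17-92 cluster, at 15.5, 15.3 and 14.2 TPM in WT and 17.4, 23.9 and 26.5 TPM in KO. *Uggt2*, a glucosyltransferase of protein folding, rose the most among those above 1 TPM, from 4.51 to 11.2 TPM. *Klf5* and *Tm9sf2* were picked after their values were seen. In the kidney and in the ganglionic eminence and olfactory bulb (GE/OB) of knockout embryos, the same genes had medians of 0.02 (57 tested) and −0.004 (60 tested), with none called. Without the stretch the comparison had 3499 calls of 14098 genes, 1745 upward and 1754 downward.

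**Figure D5:**
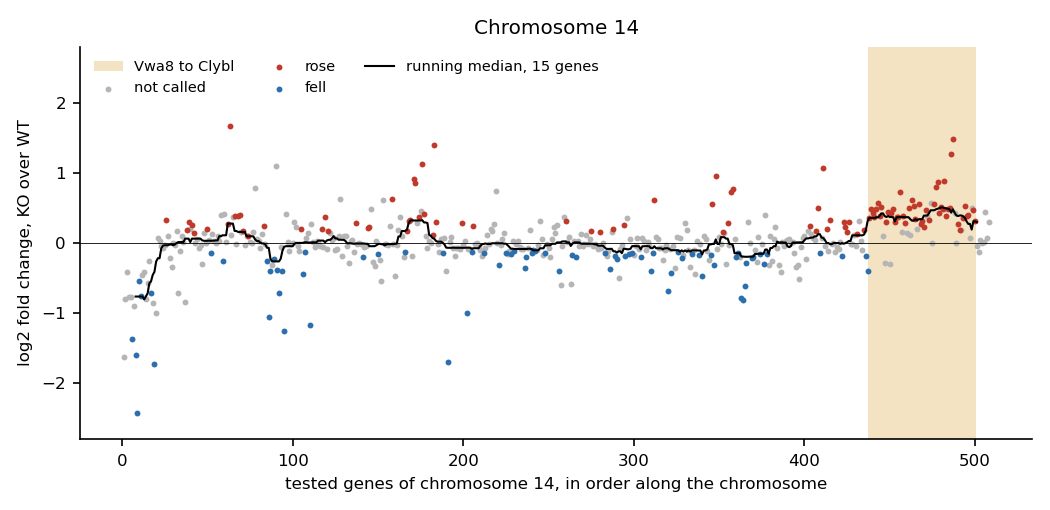
Log2 fold change of KO over WT (y) of the tested genes of chromosome 14 in their order along the chromosome (x). Points are genes, coloured by call, the line is the running median of 15 genes, and the shaded band runs from Vwa8 to Clybl. The running median stays near 0 over most of the chromosome, is low at the first genes, and lies above 0 across the band.

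At the other end of chromosome 14, the first 20 tested genes (from *Gm2897* to *Gm3558*) all had a log2 fold change below 0, with a median of −0.78, and 7 were called. Most of them carry names of predicted genes. They lie side by side and may share reads as a multigene family, so their single values are uncertain. Elsewhere the medians by chromosome were small. Chromosome 6 had a median of 0.06, with 120 genes that rose and 59 that fell of 643, and the remaining autosomes and chromosome X lay between −0.03 and 0.03. On chromosome Y 6 of 10 tested genes rose, with *Eif2s3y*, a translation factor gene, at 58.0, 56.9 and 52.5 TPM in WT and 88.4, 86.2 and 91.3 TPM in KO, while *Uty* was not called (14.8 and 14.3 TPM). *Erdr1*, listed at 492 ± 73.3 TPM in WT and 866 ± 227 TPM in KO, has its place on both sex chromosomes, which may share reads.

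Few of these genes were called in embryonic tissue of the same knockout. The tissues compared separate embryos and the stem cells wells of 1 clone per genotype, so the counts of calls are not like for like. Fitted alone, the E14.5 kidney (3 WT and 3 KO embryos) had 10 calls of 15528 genes (0.0644%). By title its WT and KO groups each held male and female embryos, in unlike numbers. GE/OB of E14.5 (2 and 2) had 6 calls of 14949 genes (0.0401%). In the kidney 794 and in GE/OB 288 genes had an unadjusted p under 0.05. DESeq2 called 50 and 22 genes. Of the 10 kidney calls, 5 could be tested in mESC, where 25.0% of all tested genes were called. Of these 5, 4 were called there (40.0% of the kidney calls and 0.113% of the mESC calls). Of the 4, 2 had the same direction, *Exosc9* and *Mccc1*. *Exosc9* had a log2 fold change of −0.68 ± 0.044 in mESC and −1.22 ± 0.076 in kidney. *Mccc1*, which encodes a subunit of an enzyme of leucine breakdown, had −0.48 ± 0.051 and −0.62 ± 0.068. *Mylpf* and *Saa3* were called in opposite directions. All 6 GE/OB calls were tested in mESC, and *LacZ* and the Y-linked *Kdm5d*, *Ddx3y* and *Eif2s3y* were also called there. The mESC call of *Kdm5d* was lost in each fit that left out 1 well, except KO well 1, and in DESeq2 (adjusted p = 0.184), and that of *Ddx3y* when WT well 1, WT well 3 or KO well 1 was left out, so that without WT well 1 the 4 shared calls became 2. In GE/OB the sex of the embryos differed between genotypes, and *LacZ* alone had the same direction. Without 1 library the kidney gave 2 to 4 calls and GE/OB 2 to 19. Whether an effect differed between mESC and these tissues was not tested.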

How the data were processed

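RNA-seq libraries of mouse embryonic stem cells, 3 wells per genotype, were analysed from the gene tables as deposited. The authors aligned paired reads to mm10 with bowtie2 and quantified them with RSEM, and the deposited expected counts are the resulting estimates per gene, not normalized and not pooled. The deposited TPM values are the authors' RSEM levels scaled for effective length and library. Versions of these tools are not given in the sources used here. Expected counts were rounded to whole numbers. Each per-gene p is from edgeR's quasi-likelihood test (edgeR 4.0.16, R 4.3.3) with TMM factors on the 14161 genes with 10 or more counts in at least 3 wells, adjusted by Benjamini-Hochberg over all genes tested, and genes under 0.05 were called. In GE/OB the filter required 2 libraries. The SE of a log2 fold change is its size divided by the root of the F statistic, so it covers the spread between wells only. Values after ± are SDs over the 3 wells of a genotype for TPM. On simulated counts of 14023 genes, the fit recovered 82.1% of changes of 1.5-fold, 87.9% of 2-fold and 98.5% of 4-fold. Only 67, 66 and 66 genes were changed, far fewer than were called in the data, and none by under 1.5-fold. The recovery therefore does not cover most calls. Positions are from GENCODE vM21 (mm10), matched by Ensembl ID for 25862 genes (96.6%).

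The genes, the 37 lists and the marker lists were chosen with earlier results of these data known. Genes were named by rule: *Peril*, *LacZ*, *Sox2*, *Exosc9* and *Mccc1*, in each direction the 8 called genes of largest fold change (at a mean of 5 TPM or more), the 8 of lowest p and the 6 of largest difference in TPM, up to 3 called members and the uncalled member of highest level per list, genes at 5 TPM or more in a genotype with 3 or fewer counts in every library of the other, the 3 longest runs of called neighbours, genes called in all 3 tissues, and called cell type markers. Two-sided exact permutation tests served single values. Alternatives were DESeq2 1.42.0 (also with length offsets), 1 fit of all 16 libraries, other scalings and filters, a minimum fold, a stricter threshold, thinning, a replicate block and leaving out each library. A comparison of promoter CpG between called and uncalled genes was void, since a promoter entry was found for 76.3% of tested genes, under 80%. The reporter assay and other data of the series were not used here. Some genes that met the rule are not reported here.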

Additional observations from a re-analysis of the deposited data

How the results depend on the processing

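The 3547 calls in mESC moved with the strictness of the fit. DESeq2 with length offsets and a count sum above 1 called 2062 genes, 1 fit of all 16 libraries 1198 (397 higher and 801 lower in KO), the test against a minimum of 1.5-fold 134, and an adjusted p under 0.01 gave 1942. The fits that each left out 1 well called 2208 to 5154 genes. DESeq2 called 2642 genes, RLE factors gave 3555, no TMM factors 3520 (2049 higher and 1471 lower), other filters on low counts 3561 and 3994, and thinning to the smallest library 2904. Without the genes from *Vwa8* to *Clybl*, an alternative chosen after seeing the data, 3499 were called. DESeq2 shared 2602 calls with edgeR (73.4% of the edgeR calls) and the fit of all libraries 1174 (33.1%), and no shared call had the opposite sign in any of the alternatives named here. In the kidney DESeq2 called 50 genes and leaving out 1 embryo gave 2 to 4 calls, against 10. In GE/OB DESeq2 called 22 genes and leaving out 1 embryo gave 2 to 19, against 6. Among the 163 named genes that were called, 21 lost the call without some well and 121 under some alternative, with 119 lost in the test against 1.5-fold, 63 in the fit of all libraries and 18 with length offsets. The cause was not tested. *Olig1* and *Olig2* fall under the count filter when a WT well is left out and so have no value there. Where a well is left out, the smallest design has 2 wells against 3, and with 1 GE/OB library left in a genotype it is assumed to vary like the other genotype.

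Wells of the genotypes share numbers 1 to 3 in the labels. Deviations of same-numbered wells from their genotype means correlated at 0.028, 0.059 and 0.038 across genes, so the numbers were not taken to pair the wells. With the replicate block 4003 genes were called, 2068 higher and 1935 lower, and of the named calls *Kdm5d* lost its call (adjusted p = 0.0584, edgeR).

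Depth limits the genes with few counts. *Peril*, with 3.0 to 17.5 expected counts per well, could not be fitted.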

Other observations

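A pair of predicted genes met the rule for genes seen in 1 genotype and near 0 counts in the other, yet rests on a handful of counts. Gm9805 had 4, 0 and 6 counts in the WT wells and 1, 0 and 3 in the KO wells, which its TPM lists as 11.9 ± 10.3 in WT and 5.79 ± 7.24 in KO (SD, n = 3 wells each). Gm21742 had no count in any WT well, none in KO wells 1 and 2 and 1 in KO well 3. Neither passed the count filter, and for Gm21742 the genotypes differ by 1 count.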
